A study of Mus musculus with 28 samples.

Results

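Hepatocyte-like cells induced from fibroblasts with chemicals were compared by the fibroblast they came from. The cells called MEF_ciHep descend from mouse embryonic fibroblasts (MEF), and those called MNF_ciHep from mouse neonatal dermal fibroblasts (MNF). Every library of both groups was used, 3 of MEF_ciHep and 2 of MNF_ciHep, which are 5 of the 28 RNA-seq libraries of the series. In both lines of descent the fibroblasts were first turned into chemically induced endoderm progenitors (ciEPC), and the ciHep were derived from ciEPC of passage 3 to 10. MEF came from E13.5 embryos (3 libraries), MNF from the skin of newborn mice (2 libraries), and the reference hepatocytes, pHep, from adult liver (2 libraries). All of these cells carried an Oct4-GFP transgenic allele. The strain of MEF and MEF_ciHep is a cross of (CBA/CaJ X C57BL/6J) mice to 129Sv/Jae females, while MNF, MNF_ciHep and pHep are (CBA/CaJ X C57BL/6J). The effects of strain, donor age and tissue of origin cannot be told apart in this design. The labels do not state the chemicals, their doses or the length of the treatment, nor whether replicate libraries are separate cultures. Every p therefore rests only on spread between libraries, estimated over all 9 groups of the fit and not in the 5 ciHep libraries alone.

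The MEF_ciHep libraries held 2420756, 6133147 and 3084682 expected counts and the MNF_ciHep libraries 3102564 and 1664063. Between 16643 and 18834 genes had counts in each. Levels are CPM, counts scaled to library size with TMM factors, listed below in the order of the replicate numbers, MEF_ciHep 1, 2 and 3 and then MNF_ciHep 1 and 2. Where all libraries of a group had no counts, 3 counts over the group, which is 0.283 CPM in MEF_ciHep and 0.618 CPM in MNF_ciHep, served as the upper limit and gives a fold as a lower bound. The fitted log2 difference of such a gene depends on the prior count and is no bound. Where a group had 1 to 3 counts the ratio of summed counts is given with its 95% counting interval, and limits and intervals cover counting error only. Across genes, which are not independent replicates, log2 CPM correlated at 0.959 to 0.965 between MEF_ciHep libraries, at 0.943 between the MNF_ciHep libraries and at 0.709 to 0.766 between the groups.

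The name hepatocyte was first set against 4 transcripts, picked with earlier results of these data known, and in these the MNF_ciHep libraries went against it. Alb, which encodes serum albumin, the main protein that hepatocytes release into blood, had 1242, 1972 and 2739.7 CPM in MEF_ciHep, 0 and 0.59 CPM in MNF_ciHep and 20089 and 12392 CPM in pHep. Serpina1b, an antitrypsin gene, had 151, 141 and 115 CPM against 0 and 0 CPM, and Ttr, which encodes the thyroid hormone carrier transthyretin, had 597, 379 and 439 CPM against 9.81 and 4.13 CPM. Hnf4a, the nuclear receptor at the centre of the hepatocyte programme, had 182, 187 and 129.6 CPM against 3.48 and 13.0 CPM. In each of these 4 genes every MEF_ciHep library lay above both MNF_ciHep libraries, and both MNF_ciHep libraries were at or near 0 for Alb and Serpina1b. MNF_ciHep is therefore used here as the name of a group of libraries. Other hepatocyte genes did not all go this way. Hepatocyte regulators summed to 768 to 1114 CPM in MEF_ciHep and 699 and 1504 CPM in MNF_ciHep. Urea cycle genes summed to 818 to 1031 CPM and 896 and 969 CPM. Secreted hepatocyte proteins summed to 14096 to 36529 CPM and 1023 and 2045 CPM. Their sum in MNF was 131 and 54.4 CPM, and its difference from MNF_ciHep was not tested. The 2 groups also differed in markers of other cells: 32 fibroblast and matrix genes summed to 1716 to 2731 CPM in MEF_ciHep and 16455 and 21275 CPM in MNF_ciHep, and 10 stomach genes to 11344 to 33014 CPM and 28.2 and 133 CPM. In pHep the fibroblast and matrix genes summed to 14747 and 24723 CPM and the stomach genes to 507 and 28.8 CPM. The fibroblast sum thus does not set MNF_ciHep apart from pHep, but it does not speak for each member. Twist2 and Postn are the list members among the largest differences named below. Twist2 had 0 and 1.09 CPM in pHep against 55.7 and 46.6 CPM in MNF_ciHep. Postn had 1.33 and 93.3 CPM in pHep against 1228 and 740 CPM in MNF_ciHep. How the other members differ from pHep was not tested. In bulk RNA fewer cells of a type and less RNA per cell cannot be told apart, and the share of such other cells in the differences below was not tested.

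Hepatocytes make most plasma proteins, and they clear drugs, nitrogen and lipids through enzymes that are switched on in steps before and after birth. A set of transcription factors, among them the HNF4 and FOXA families, binds near these genes and near each other's genes. Fibroblasts instead express collagens and other matrix proteins under mesenchymal regulators such as TWIST and PRRX, and they keep a code of Hox genes from the body position where they arose. Reprogramming from fibroblasts to hepatocyte-like cells has to remove the second programme and install the first, and the comparison of MEF_ciHep with MNF_ciHep sets the state of both programmes side by side.

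The promoters of 4 genes are shown because these genes stand for the programmes in which the groups parted: Alb and Serpina1b for secreted hepatocyte proteins, Isg15 for the interferon response and Top2a for cell division. Each line gives the 250 bases before the RefSeq start site on GRCm38.p6, 5′ to 3′ on the strand of the gene, in lower case. Capitals mark CCAAT, the CCAAT box, in Alb, Serpina1b and Top2a, GAAANNGAAA, the interferon-stimulated response element, in Isg15, and TTTGAA, the cell cycle element CHR, in Top2a. All motifs were searched on both strands.
Alb, chr5:90460620-90460869, plus strand: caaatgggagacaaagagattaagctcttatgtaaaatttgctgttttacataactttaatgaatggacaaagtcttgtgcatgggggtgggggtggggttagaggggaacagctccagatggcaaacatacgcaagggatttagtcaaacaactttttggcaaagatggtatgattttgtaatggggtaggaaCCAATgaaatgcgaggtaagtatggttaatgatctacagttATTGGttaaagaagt
Serpina1b, chr12:103738190-103738439, minus strand: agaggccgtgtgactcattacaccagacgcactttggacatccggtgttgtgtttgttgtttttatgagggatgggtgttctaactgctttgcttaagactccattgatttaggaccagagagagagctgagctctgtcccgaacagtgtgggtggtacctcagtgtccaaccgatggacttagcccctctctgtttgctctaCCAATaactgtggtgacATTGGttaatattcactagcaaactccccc
Isg15, chr4:156200819-156201068, minus strand: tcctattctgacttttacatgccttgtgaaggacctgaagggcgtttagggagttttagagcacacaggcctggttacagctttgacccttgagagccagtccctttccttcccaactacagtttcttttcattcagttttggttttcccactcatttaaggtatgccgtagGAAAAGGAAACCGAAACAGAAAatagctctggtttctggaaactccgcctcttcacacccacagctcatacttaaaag
Top2a, chr11:99024190-99024439, minus strand: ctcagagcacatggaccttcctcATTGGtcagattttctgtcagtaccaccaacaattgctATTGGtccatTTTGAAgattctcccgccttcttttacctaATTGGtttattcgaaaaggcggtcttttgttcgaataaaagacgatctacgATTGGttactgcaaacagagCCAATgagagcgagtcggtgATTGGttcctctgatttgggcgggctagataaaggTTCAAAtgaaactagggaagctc
The CCAAT matches begin 56 and 15 bases before the start site in Alb and 47 and 30 bases before it in Serpina1b. In Isg15 the 3 matches begin 78, 72 and 66 bases before the start site and overlap each other. Top2a holds 6 CCAAT and 2 TTTGAA matches, in either orientation. Of the 16061 genes tested, 11659 had a window of 300 bases, from 250 before to 50 after the start site. GAAANNGAAA was present in 2.84% of these windows and in 10 of the 14 of the interferon response list. CCAAT was present in 38.8% of all windows, in 11 of the 30 available for secreted hepatocyte proteins and in 17 of the 21 of the cell cycle list, and TTTGAA in 12.1% and in 9 of 21. A match describes the letters in this window and is neither a bound site nor a cause.

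**Figure D1:**
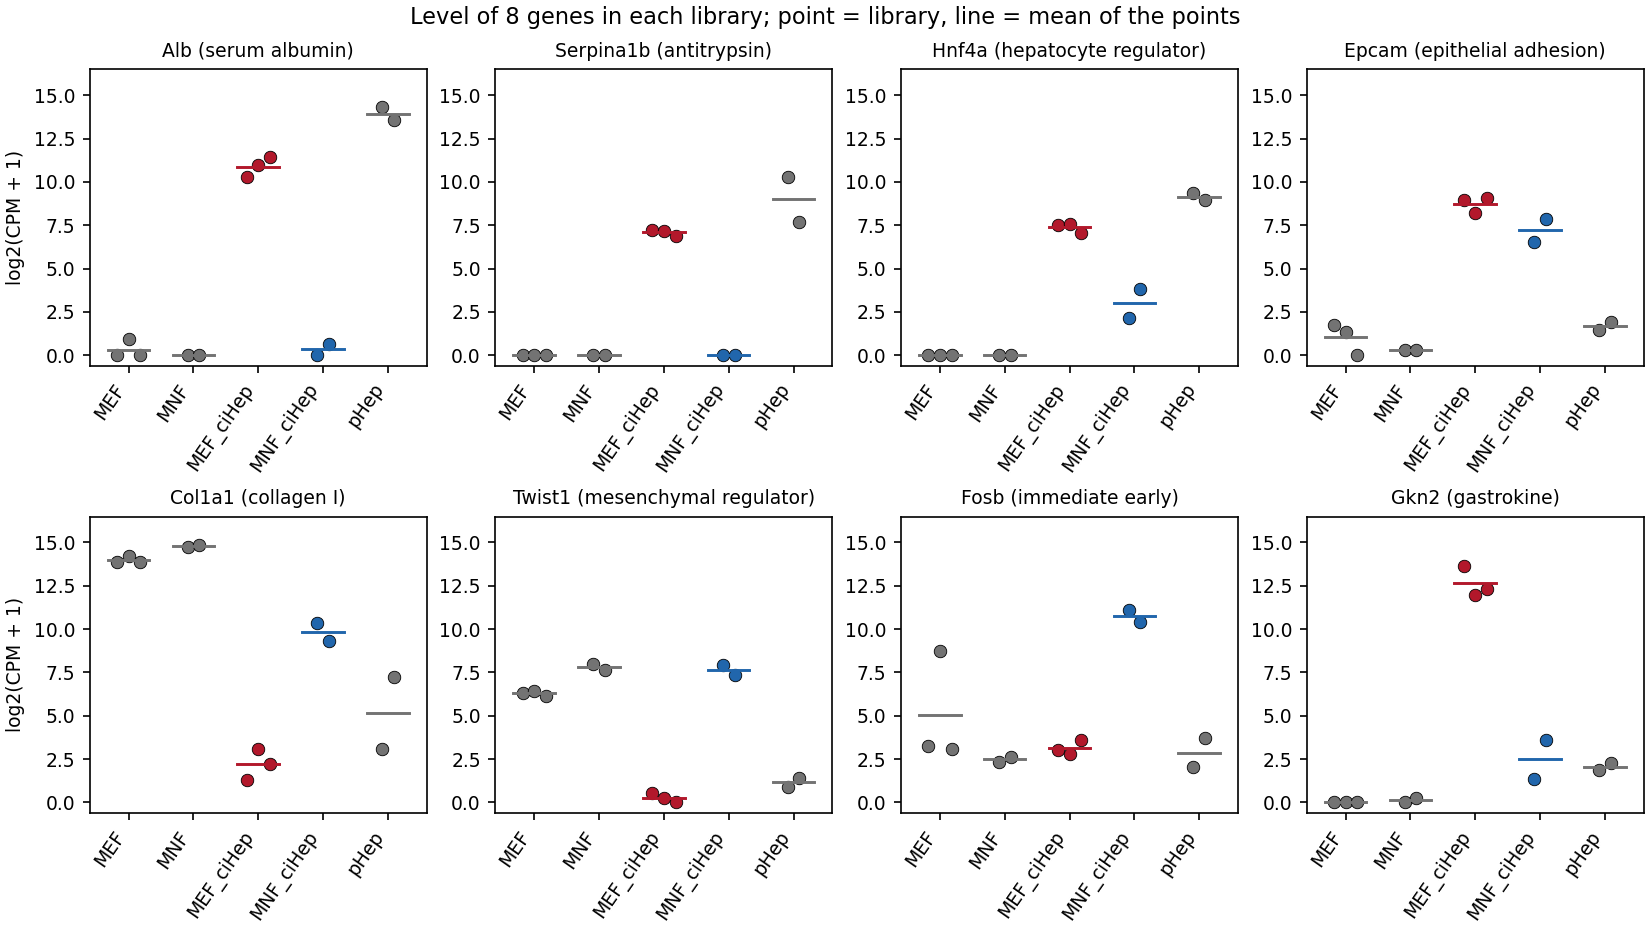
Level of 8 genes in each library of the fibroblasts, both ciHep groups and primary hepatocytes, as log2(CPM + 1). A point is a library and a line the mean of its group on that scale. Alb, Serpina1b, Hnf4a, Epcam and Gkn2 lie higher in all MEF_ciHep libraries (red) than in both MNF_ciHep libraries (blue), and Col1a1, Twist1 and Fosb lie higher in both MNF_ciHep libraries.

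Over all genes the 2 ciHep groups differed widely. Calls required at least a 2-fold difference and, in edgeR's quasi-likelihood test, a Benjamini-Hochberg adjusted p under 0.05. Of 16061 genes tested, 2583 (16.1%) were called higher in MEF_ciHep and 2866 (17.8%) higher in MNF_ciHep. The median log2 difference, MEF_ciHep minus MNF_ciHep, was -0.04 over all tested genes. All 3 MEF_ciHep libraries lay above both MNF_ciHep libraries in 4812 genes (30.0%), and the reverse held in 5143 genes (32%). These shares are the background against which the counts of each gene group are read. The gene groups hold textbook genes, and a member with low counts in every group was left out of the test. Groups and members were chosen with earlier results of these data known, so a count above these shares describes the group and is no independent test.

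**Figure D2:**
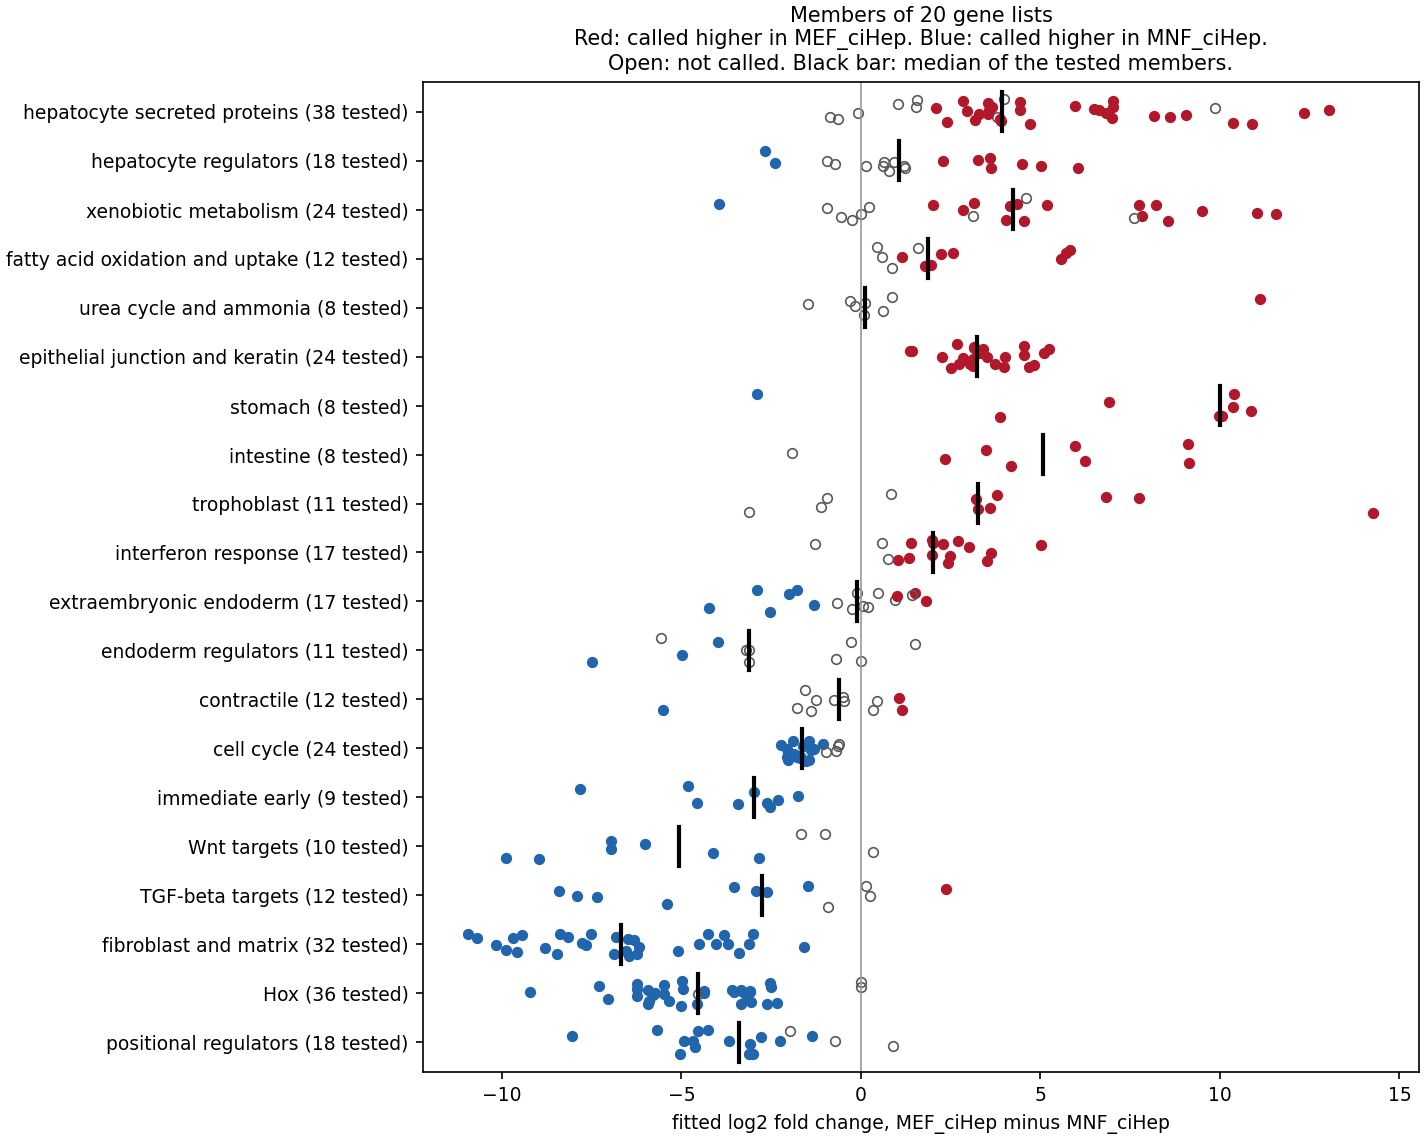
Fitted log2 difference, MEF_ciHep minus MNF_ciHep, of the tested members of 20 gene lists. Filled points were called (red higher in MEF_ciHep, blue higher in MNF_ciHep), open points were not, and the black bar is the median of the tested members. Secreted hepatocyte proteins and epithelial genes lie on the right, with medians of 3.93 and 3.24, and fibroblast and matrix genes on the left, with a median of -6.68.

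Secreted plasma proteins were mostly higher in MEF_ciHep. Of 39 genes 38 were tested, 29 were called higher in MEF_ciHep and 0 higher in MNF_ciHep, with a median log2 difference of 3.93. The levels of MEF_ciHep were 0.4% to 330.1% of those in pHep, with a median of 12%, and those of MNF_ciHep 0% to 81.5%, with a median of 0.473%. These percentages are coarse, because the 2 pHep libraries differed widely in some genes, such as Serpina1b at 1227 and 209 CPM. Alb was higher in MEF_ciHep in all 3 libraries (ratio of summed counts 9842, interval 1766 to 388757, log2 difference 13.04 ± 0.94 (SE), edgeR adjusted p = 1.21e-06), against 1 count in the whole of MNF_ciHep. Apoa1, the main protein of high density lipoprotein, had 13440.4, 4781 and 10738 CPM in MEF_ciHep and 4.75 and 47.2 CPM in MNF_ciHep, with 5074 and 775 CPM in pHep. That is a fitted 389.9-fold difference (log2 difference 8.61 ± 1.23 (SE), edgeR adjusted p = 0.000119), and the MEF_ciHep levels reached or exceeded the range of pHep. Trf, which encodes the iron carrier transferrin, had 13622, 3079.9 and 11490.0 CPM against 51.9 and 94.4 CPM (log2 difference 6.99 ± 0.83 (SE), edgeR adjusted p = 9.66e-06), and it was the most abundant transcript of MEF_ciHep 1. Replicate 2 of MEF_ciHep was the lowest of its group for Apoa1 and Trf, yet it lay far above both MNF_ciHep libraries. The summed level of the 32 fibroblast genes moved the other way in these same libraries, as given above, and its part in the hepatocyte results was not tested.

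The fibrinogen chains, from which clots are built, moved together. Fga had 621, 229.6 and 608 CPM in MEF_ciHep and 2.22 and 10.0 CPM in MNF_ciHep (log2 difference 6.49 ± 0.71 (SE), edgeR adjusted p = 2.31e-05). Fgb had 1628, 484 and 1232 against 25.0 and 60.8 CPM (log2 difference 4.71 ± 0.59 (SE), edgeR adjusted p = 1e-04), and Fgg had 320.1, 141 and 335 against 6.33 and 20.1 CPM (log2 difference 4.43 ± 0.69 (SE), edgeR adjusted p = 0.000421). All 3 chains were thus present in MNF_ciHep at a low level, higher in replicate 2 than in replicate 1. Apob, the scaffold of very low density lipoprotein, had 487, 207 and 291 against 2.22 and 2.95 CPM (log2 difference 7.01 ± 0.80 (SE), edgeR adjusted p = 9.38e-06), and Hp, which encodes the haemoglobin scavenger haptoglobin, had 479, 711 and 532 against 6.33 and 2.95 CPM (log2 difference 6.84 ± 0.74 (SE), edgeR adjusted p = 8.54e-06). The 9 tested genes of this list that were not called included the lipoprotein gene Apoe, with 911, 299 and 723 CPM in MEF_ciHep and 653 and 1306 CPM in MNF_ciHep (log2 difference -0.63 ± 0.45 (SE), edgeR adjusted p = 0.268), where the groups overlapped. F2, the gene of prothrombin, had 434, 116 and 297 against 11.1 and 182 CPM (log2 difference 1.56 ± 0.79 (SE), edgeR adjusted p = 0.123), and MNF_ciHep replicate 2 lay within the range of MEF_ciHep. Serpina1c, a further antitrypsin gene, had 15.5, 37.6 and 16.5 against 0 and 0 CPM and did not pass the test (edgeR adjusted p = 0.0564). The antitrypsin genes are near-identical copies, so that the division of reads among Serpina1a, Serpina1b and Serpina1c is uncertain.

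Among the regulators of hepatocyte genes 7 of 18 tested (20 in the list) were called higher in MEF_ciHep and 2 higher in MNF_ciHep, with a median log2 difference of 1.05. Hnf4a was 22.6-fold higher in MEF_ciHep (log2 difference 4.50 ± 0.55 (SE), edgeR adjusted p = 3.5e-05). Foxa3, which helps to open chromatin at liver genes, had 47.0, 33.3 and 24.2 CPM in MEF_ciHep, 0.95 and 1.18 CPM in MNF_ciHep and 39.8 and 43.4 CPM in pHep (log2 difference 5.02 ± 0.63 (SE), edgeR adjusted p = 4.4e-05). Nr1i2, the receptor that senses drugs and bile acids, had 19.9, 15.4 and 10.6 against 0.317 and 0 CPM (ratio of summed counts 72.9, interval 12.9 to 2897, log2 difference 6.05 ± 1.07 (SE), edgeR adjusted p = 0.000722), while Cebpb, a factor of the acute phase, was higher in MNF_ciHep, with 214 and 156 CPM against 32, 20.2 and 36.6 CPM (log2 difference -2.69 ± 0.39 (SE), edgeR adjusted p = 5.19e-05). The early endoderm factors Foxa2, Gata4 and Gata6 did not pass the test: Gata4 had 296, 209.8 and 134 CPM in MEF_ciHep and 180.1 and 642 CPM in MNF_ciHep, and Foxa2 142, 91.7 and 89.7 and 24.7 and 117 CPM. Both groups overlapped in these genes, with MNF_ciHep replicate 2 the higher library of its pair. Without MNF_ciHep replicate 1 the regulators called higher in MNF_ciHep numbered 4.

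Genes of drug and steroid metabolism were mostly higher in MEF_ciHep, many of them at low levels. Of 29 genes 24 were tested, 15 were called higher in MEF_ciHep and 1 higher in MNF_ciHep, with a median log2 difference of 4.25, or 3.21 with genes that had no counts in MNF_ciHep set to their bound. Ugt2b34, which couples glucuronic acid to hormones and drugs, had 695, 667 and 628 CPM in MEF_ciHep and 11.1 and 27.1 CPM in MNF_ciHep (log2 difference 5.18 ± 0.61 (SE), edgeR adjusted p = 6.24e-05), above the 62.8 and 219.7 CPM of pHep. Cyp3a13, an oxidising enzyme of drug clearance, had 154, 185 and 162 against 0.317 and 0.59 CPM (ratio of summed counts 419, interval 116 to 3461, log2 difference 8.56 ± 0.88 (SE), edgeR adjusted p = 2.69e-06). Cyp2d10, of another drug-oxidising family, had 52.3, 46.3 and 66.7 against 0 and 0 CPM (at least 85.3-fold, log2 difference 11.02 ± 1.0 (SE), edgeR adjusted p = 3.86e-05). Cyp3a11, a major drug-oxidising enzyme of adult mouse liver, was uneven within MEF_ciHep, with 5.81, 42.1 and 6.96 CPM against 0 and 0 CPM (at least 42.0-fold, log2 difference 9.5 ± 2.26 (SE), edgeR adjusted p = 0.00842). The aryl hydrocarbon target Cyp1a1 was the member called higher in MNF_ciHep, with 8.86 and 9.44 CPM against 0, 0.518 and 1.10 CPM (log2 difference -3.96 ± 0.77 (SE), edgeR adjusted p = 0.00134). Por, the electron donor of these enzymes, had 509, 331 and 568 CPM in MEF_ciHep and 914 and 459 CPM in MNF_ciHep and was not called (log2 difference -0.56 ± 0.24 (SE), edgeR adjusted p = 0.0653). Without MNF_ciHep replicate 1 the number higher in MEF_ciHep was 7 and Cyp3a11 was not called (edgeR adjusted p = 0.0625), nor was it in DESeq2 (adjusted p = 0.298). Without MEF_ciHep replicate 2 the number higher in MNF_ciHep was 2.

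In nitrogen and amino acid metabolism single genes were called. In lists this small such a count cannot be told from the 16.1% of all tested genes called higher in MEF_ciHep. Of 9 genes of the urea cycle and ammonia handling 8 were tested and 1 was called. Cps1, the mitochondrial enzyme that starts the cycle, had 48.4, 48.9 and 77.6 CPM in MEF_ciHep and 0 and 0 CPM in MNF_ciHep (at least 90.9-fold, log2 difference 11.10 ± 1.21 (SE), edgeR adjusted p = 3.62e-05), with 123 and 315 CPM in pHep. The later enzymes Ass1, with 70.7, 54.9 and 163 against 151 and 80.8 CPM, and Asl, with 41.2, 51.3 and 46.1 against 45.6 and 38.9 CPM, overlapped between the groups and were not called. Of 14 genes that break down amino acids 13 were tested and 1 was called, Mat1a, the liver form of methionine adenosyltransferase, with 16, 18.8 and 17.9 CPM in MEF_ciHep and 0.317 and 0 CPM in MNF_ciHep (ratio of summed counts 87.6, interval 15.5 to 3477, log2 difference 6.26 ± 0.98 (SE), edgeR adjusted p = 0.000311). Of 12 genes of glucose and glycogen 11 were tested and 4 were called higher in MEF_ciHep. They included Pklr, the liver pyruvate kinase, with 19.9, 42.3 and 25.6 against 0.317 and 2.36 CPM (log2 difference 4.74 ± 0.88 (SE), edgeR adjusted p = 0.00102), and G6pc, which releases free glucose, with 2.42, 1.90 and 2.93 against 0 and 0 CPM (at least 3.67-fold, log2 difference 6.51 ± 1.93 (SE), edgeR adjusted p = 0.0227). The glucose count fell to 1 without MNF_ciHep replicate 1 and also without MNF_ciHep replicate 2, where the edgeR adjusted p of G6pc was 0.135 and 0.0678, and to 2 without MEF_ciHep replicate 3. G6pc was not called in DESeq2 (adjusted p = 0.139) or with the replicate number as a block (edgeR adjusted p = 0.07). Without MEF_ciHep replicate 2 the amino acid genes called higher in MEF_ciHep numbered 2. In limma they numbered 3, with 1 called higher in MNF_ciHep.

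Fatty acid oxidation and uptake differed more evenly. All 12 genes were tested, 8 were called higher in MEF_ciHep and 0 higher in MNF_ciHep, with a median log2 difference of 1.88. Acadm, a mitochondrial dehydrogenase, had 273, 148 and 230.4 CPM in MEF_ciHep and 44.3 and 46.6 CPM in MNF_ciHep (log2 difference 2.24 ± 0.23 (SE), edgeR adjusted p = 2.73e-06). Genes of lipid and cholesterol synthesis did not share this pattern: of 16 tested, 1 was called higher in MEF_ciHep and 3 higher in MNF_ciHep, with a median of -0.19. The 1 was lost without MEF_ciHep replicate 1, MEF_ciHep replicate 3 or MNF_ciHep replicate 2. Scd1, which desaturates fatty acids, was among the 3, with 1311 and 992 CPM in MNF_ciHep and 258, 228 and 333 CPM in MEF_ciHep (log2 difference -2.09 ± 0.31 (SE), edgeR adjusted p = 7.12e-05). Of 15 bile acid genes 9 were tested, with 5 called higher in MEF_ciHep and 1 higher in MNF_ciHep, and the 5 fell to 2 without MEF_ciHep replicate 1 or without MNF_ciHep replicate 1 and to 3 without MEF_ciHep replicate 3 or without MNF_ciHep replicate 2. The basolateral exporter Abcc3 had 307, 574 and 293 against 51.3 and 26.0 CPM (log2 difference 3.31 ± 0.45 (SE), edgeR adjusted p = 2.84e-05). Cyp7b1, an oxysterol hydroxylase, was the member higher in MNF_ciHep, with 52.5 and 15.9 CPM against 0, 0 and 0 CPM (at least 140.3-fold, log2 difference -10.37 ± 1.23 (SE), edgeR adjusted p = 1.93e-05). Cyp7a1, the rate-limiting enzyme of bile acid synthesis, had 0, 0.173 and 0 CPM in MEF_ciHep and 0 and 0 CPM in MNF_ciHep and was not tested.

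Markers of fetal liver split. Of 10 genes, all tested, 3 were called higher in MEF_ciHep and 3 higher in MNF_ciHep. Afp, the fetal counterpart of albumin, had 7023, 1559 and 7022 CPM in MEF_ciHep and 0.95 and 7.08 CPM in MNF_ciHep (log2 difference 10.57 ± 0.99 (SE), edgeR adjusted p = 4.56e-06), above the 429 and 491 CPM of pHep. Met, the receptor of hepatocyte growth factor, had 66.8, 89.8 and 68.9 against 10.4 and 7.08 CPM (log2 difference 3.05 ± 0.28 (SE), edgeR adjusted p = 1.04e-06). In the opposite direction, Dlk1, a surface protein of hepatoblasts that fibroblasts also make, had 294 and 234 CPM in MNF_ciHep and 37.3, 8.29 and 8.42 CPM in MEF_ciHep (log2 difference -4.01 ± 0.85 (SE), edgeR adjusted p = 0.00149). Tbx3, a regulator of hepatoblast growth, had 399 and 269.6 CPM in MNF_ciHep and 21.3, 18.6 and 16.1 CPM in MEF_ciHep (log2 difference -4.17 ± 0.38 (SE), edgeR adjusted p = 1e-06). The imprinted pair H19 and Igf2 was high in both groups, with H19 at 11800.2, 5138 and 16343 CPM in MEF_ciHep and 7402 and 7735 CPM in MNF_ciHep, and neither gene was called.

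Epithelial identity separated the groups without exception among 24 junction and keratin genes: all 24 were tested and all 24 were called higher in MEF_ciHep, with a median log2 difference of 3.24. Cdh1, which encodes the adhesion protein E-cadherin, had 1382, 1099.8 and 1322 CPM in MEF_ciHep and 37.7 and 153 CPM in MNF_ciHep (log2 difference 3.74 ± 0.54 (SE), edgeR adjusted p = 5.73e-05). Ocln, a protein of tight junctions, had 346, 285 and 255 against 6.65 and 9.44 CPM (log2 difference 5.23 ± 0.32 (SE), edgeR adjusted p = 2.93e-08). Krt8 and Krt18 form the keratin filaments of hepatocytes, and Krt8 had 4307, 3989 and 5065 CPM in MEF_ciHep, 214 and 618 CPM in MNF_ciHep and 8693 and 5103 CPM in pHep (log2 difference 3.41 ± 0.44 (SE), edgeR adjusted p = 1.83e-05). Grhl2, a regulator of epithelial genes, had 75.1, 93.6 and 108 against 2.22 and 4.72 CPM (log2 difference 4.83 ± 0.40 (SE), edgeR adjusted p = 1.67e-06). The smallest gaps were in Elf3 and Epcam, and Epcam, an adhesion protein of epithelial progenitors, had 491, 294 and 528 CPM in MEF_ciHep, 91.5 and 232 CPM in MNF_ciHep and 209 CPM at the median of 9 of the 10 MEF_ciEPC libraries (log2 difference 1.42 ± 0.38 (SE), edgeR adjusted p = 0.00655). Epcam was not called without MNF_ciHep replicate 1 (edgeR adjusted p = 0.105) or with the MEF_ciEPC libraries as separate samples (edgeR adjusted p = 0.0771). The MEF_ciEPC library left out, that of passage 22 in series 2, stood apart from the others and is absent from all medians and correlations of that group. MNF_ciHep replicate 2 was above replicate 1 for Cdh1, Krt8, Grhl2 and Epcam. Its levels stayed below those of every MEF_ciHep library in these genes. Against the MNF libraries, which had 0.215 and 0.214 CPM of Epcam and 0.86 and 0.429 CPM of Krt8, both MNF_ciHep libraries were higher, a difference that was not tested.

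The epithelial genes high in MEF_ciHep were not those of liver alone. Of 10 stomach genes 8 were tested, 7 were called higher in MEF_ciHep and 1 higher in MNF_ciHep, with a median log2 difference of 10.0. Gkn2, which encodes a gastrokine of the stomach surface, had 12904, 4000.5 and 5083 CPM in MEF_ciHep, 1.58 and 11.2 CPM in MNF_ciHep and 2.65 and 3.80 CPM in pHep (log2 difference 10.35 ± 1.01 (SE), edgeR adjusted p = 9.74e-06). Tff1, a trefoil peptide that protects gastric mucus, had 5756, 3428 and 2483 against 2.22 and 1.77 CPM (log2 difference 10.86 ± 1.72 (SE), edgeR adjusted p = 0.00047). Muc5ac, the gel-forming mucin of the stomach surface, had 495, 397 and 498 against 0.633 and 0 CPM (ratio of summed counts 1073, interval 297 to 8864, log2 difference 10.05 ± 0.79 (SE), edgeR adjusted p = 4.15e-06). In the ciEPC stage Gkn2 was at a median of 175 CPM in MEF_ciEPC and at 294 and 93.3 CPM in MNF_ciEPC, so that its level in MEF_ciHep lay above these and its level in MNF_ciHep below them, which was not tested. Barx1, a regulator of the stomach mesenchyme, was the member higher in MNF_ciHep, with 7.28 and 5.90 CPM against 0.484, 0.691 and 1.46 CPM (log2 difference -2.90 ± 0.79 (SE), edgeR adjusted p = 0.00759), and it was not called without MNF_ciHep replicate 1 (edgeR adjusted p = 0.0554). Among 10 intestinal genes 8 were tested and 7 were called higher in MEF_ciHep, such as the microvillus protein Vil1, with 163, 144 and 105 against 0.95 and 4.13 CPM (log2 difference 5.95 ± 0.80 (SE), edgeR adjusted p = 3.59e-05). Tff3, a trefoil peptide of goblet cells, had 546, 449 and 457 against 0.317 and 1.77 CPM (log2 difference 9.12 ± 1.42 (SE), edgeR adjusted p = 0.000428).

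Genes of the trophoblast, the outer lineage of the placenta, were uneven between MEF_ciHep libraries. Of 12 genes 11 were tested and 7 were called higher in MEF_ciHep, a count that fell to 3 without MEF_ciHep replicate 3, without MNF_ciHep replicate 1 or without MNF_ciHep replicate 2. Hand1, a regulator of trophoblast giant cells, had 25.7, 88.2 and 319 CPM in MEF_ciHep and 1.27 and 1.18 CPM in MNF_ciHep (log2 difference 6.82 ± 1.11 (SE), edgeR adjusted p = 0.000308). Prl3d1, which encodes a placental lactogen, had 109.9, 406 and 1064 against 0 and 0 CPM (at least 838-fold, log2 difference 14.28 ± 2.0 (SE), edgeR adjusted p = 0.00048), and in DESeq2 its adjusted p was 0.0736. In both genes replicate 3 of MEF_ciHep was the highest and replicate 1 the lowest. The summed level of the list was 204 to 1868 CPM in MEF_ciHep and was 244 and 336 CPM in MNF_ciHep, so the groups overlapped in the sum. Prl2c3, a relative of prolactin, had 10.7, 194 and 67.0 CPM in MEF_ciHep and 139.6 and 221 CPM in MNF_ciHep and was not called (log2 difference -0.95 ± 1.19 (SE), edgeR adjusted p = 0.542). Prolactin-family genes have close copies, so their division of reads is uncertain.

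Extraembryonic endoderm genes, which mark the yolk sac lineage, separated less. All 17 were tested, 3 were called higher in MEF_ciHep and 6 higher in MNF_ciHep, with a median log2 difference of -0.11. The basement membrane genes Lama1, Lamb1, Lamc1, Col4a1 and Col4a2 stood at 881 CPM or more in every library of both groups, and none was called. Lama1, a laminin chain, had 3238, 1551 and 1882 CPM in MEF_ciHep and 881 and 4293 CPM in MNF_ciHep (log2 difference -0.24 ± 0.45 (SE), edgeR adjusted p = 0.687), so that the 2 MNF_ciHep replicates lay on either side of MEF_ciHep. Without MNF_ciHep replicate 2 the number called higher in MEF_ciHep was 8, and the log2 difference of Lama1 was 1.31. Stra6, the receptor for the retinol carrier, had 204 and 102 CPM in MNF_ciHep and 6.78, 9.5 and 7.69 CPM in MEF_ciHep (log2 difference -4.23 ± 0.46 (SE), edgeR adjusted p = 4.01e-06). Of 11 endoderm regulators, all tested, 0 were called higher in MEF_ciHep and 3 higher in MNF_ciHep. Sox7, a factor of parietal endoderm and vessels, had 52.2 and 159 CPM in MNF_ciHep, 0.484, 0.691 and 0.366 CPM in MEF_ciHep and 89.4 and 155 CPM in MNF_ciEPC (log2 difference -7.48 ± 0.74 (SE), edgeR adjusted p = 1.87e-06). Its relative Sox17 had 141, 141 and 59.0 CPM in MEF_ciHep and 62.4 and 214 CPM in MNF_ciHep and was not called (log2 difference -0.27 ± 0.48 (SE), edgeR adjusted p = 0.672). For these regulators the count higher in MNF_ciHep was 1 in a fit of the 5 ciHep libraries alone, and that higher in MEF_ciHep was 1 without MEF_ciHep replicate 1.

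The fibroblast programme lay on the other side. All 32 fibroblast and matrix genes were tested and all 32 were called higher in MNF_ciHep, with a median log2 difference of -6.68. Col1a1, the main chain of type I collagen, had 1305 and 633 CPM in MNF_ciHep and 1.45, 7.42 and 3.66 CPM in MEF_ciHep (log2 difference -7.67 ± 1.02 (SE), edgeR adjusted p = 2.68e-05), where MNF had 27488 and 29468 CPM and MEF 14894, 19187 and 15285 CPM. Relative to their own fibroblasts, the 32 genes were at a median of 25.7% of the MNF level in MNF_ciHep, with a range of 1.16% to 201.4%, and at a median of 0.248% of the MEF level in MEF_ciHep, with a range of 0% to 52.8%. In MNF_ciHep 3 of the 32 exceeded the level in MNF. Postn, a matrix protein of injured and growing tissue, had 1228 and 740.3 CPM in MNF_ciHep and 0, 0.345 and 1.46 CPM in MEF_ciHep (log2 difference -10.68 ± 1.15 (SE), edgeR adjusted p = 5.76e-06). Twist1, a regulator of mesenchyme, had 244 and 160.5 CPM in MNF_ciHep and 0.484, 0.173 and 0 CPM in MEF_ciHep (ratio of summed counts 1137, interval 314 to 9404, log2 difference -9.88 ± 0.44 (SE), edgeR adjusted p = 2.82e-09), and MNF had 253 and 201 CPM. Twist2, its close relative, had 55.7 and 46.6 CPM against 0, 0 and 0 CPM (at least 185-fold, log2 difference -10.93 ± 1.31 (SE), edgeR adjusted p = 4.43e-05). Vim, the intermediate filament of mesenchymal cells, had 1131 and 612 CPM against 132, 154 and 42.1 CPM (log2 difference -2.99 ± 0.42 (SE), edgeR adjusted p = 4.01e-05), and Fn1, the adhesive matrix protein fibronectin that hepatocytes also release, showed the smallest gap, with 4314 and 7123 CPM against 2294, 1388 and 2113 CPM (log2 difference -1.58 ± 0.29 (SE), edgeR adjusted p = 0.000414, or 0.0726 with the MEF_ciEPC libraries as separate samples). The level of Postn, Twist1 and Twist2 in the MNF_ciEPC libraries was 0.158 and 0.363, 1.42 and 1.27 and 0 and 0 CPM. In the libraries labelled MNF_ciHep these genes were above those 2 libraries, a difference that was not tested. The MNF_ciEPC libraries were of passage 2 and 3, whereas ciHep came from ciEPC of passage 3 to 10, so they need not be the direct progenitors. The highest level in 9 of the 10 MEF_ciEPC libraries was 9.54 CPM for Postn and 13.6 CPM for Twist2.

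Smooth muscle and contractile genes were mostly not called. Of 12 contractile genes, all tested, 2 were called higher in MEF_ciHep and 1 higher in MNF_ciHep, with a median log2 difference of -0.62. The 2 fell to 0 without MNF_ciHep replicate 2 and to 1 without MEF_ciHep replicate 1 or 3, and the 1 became 2 without MEF_ciHep replicate 3. Acta2, the actin of activated fibroblasts and smooth muscle, had 8.72, 5.70 and 7.32 CPM in MEF_ciHep, 25.0 and 6.49 CPM in MNF_ciHep and 1786 and 2482 CPM in MNF, and it was not called (log2 difference -1.25 ± 0.86 (SE), edgeR adjusted p = 0.248). Tagln, a smooth muscle protein, had 5.33, 3.97 and 5.49 against 15.2 and 8.85 CPM and was also not called (log2 difference -1.38 ± 0.73 (SE), edgeR adjusted p = 0.134). In MNF_ciHep, then, Acta2 stood at 25.0 CPM or less while Col1a1 stood at 633 CPM or more. Of 12 targets of TGF-beta, 8 were called higher in MNF_ciHep and 1 higher in MEF_ciHep. Tgfbi, a matrix protein induced by TGF-beta, had 337 and 83.8 CPM in MNF_ciHep and 0.484, 0.863 and 1.10 CPM in MEF_ciHep (log2 difference -7.92 ± 0.86 (SE), edgeR adjusted p = 4.15e-06), whereas the growth factor gene Ctgf had 921, 219 and 413 CPM in MEF_ciHep and 48.7 and 149 CPM in MNF_ciHep (log2 difference 2.38 ± 0.75 (SE), edgeR adjusted p = 0.0161). Ctgf, the 1 target called in that direction, was not called without MEF_ciHep replicate 1 (edgeR adjusted p = 0.0685), without MNF_ciHep replicate 1 (0.148), with the replicate number as a block (0.0576) or with the MEF_ciEPC libraries as separate samples (0.246). Of 9 genes of hepatic stellate cells, the vitamin A storing cells of the liver, 8 were tested and 7 were called higher in MNF_ciHep. They included Hgf, with 14.9 and 20.6 CPM against 0, 0 and 0 CPM (at least 59.6-fold, log2 difference -9.40 ± 1.60 (SE), edgeR adjusted p = 0.000762), and Lrat, which esterifies retinol, with 40.5 and 3.54 CPM against 0, 0.173 and 0 CPM (ratio of summed counts 292, interval 51.6 to 11629, log2 difference -7.58 ± 1.74 (SE), edgeR adjusted p = 0.00389). The 2 MNF_ciHep libraries differed widely in Lrat, which was not called without MNF_ciHep replicate 1 (log2 difference -4.93, edgeR adjusted p = 0.113) or in DESeq2 (adjusted p = 0.203).

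Hox genes, which record position along the body axis, were low in MEF_ciHep. Of 39 genes 36 were tested, 33 were called higher in MNF_ciHep and 0 higher in MEF_ciHep, with a median log2 difference of -4.54, or -3.99 with genes without counts set to their bound. The 39 genes summed to 6.78 to 24.0 CPM in MEF_ciHep, 220.0 and 552 CPM in MNF_ciHep and 469 and 564 CPM in MNF. Hoxb9, of the trunk, had 92.7 and 34.8 CPM in MNF_ciHep, 0.969, 1.21 and 0.732 CPM in MEF_ciHep and 26.4 and 28.9 CPM in MNF (log2 difference -5.94 ± 0.47 (SE), edgeR adjusted p = 4.07e-07). Hoxa5 had 57.0 and 10.6 CPM against 0.484, 0.173 and 0 CPM (ratio of summed counts 216, interval 59.0 to 1795, log2 difference -7.31 ± 0.86 (SE), edgeR adjusted p = 8.97e-06), and Hoxc6 had 42.7 and 19.5 CPM against 0.484, 0.863 and 0.732 CPM (log2 difference -5.36 ± 0.49 (SE), edgeR adjusted p = 1.48e-06). MNF_ciHep replicate 1 was the higher of its pair in these 3 genes, and without it 18 Hox genes were called. Neighbouring Hox genes overlap and share transcripts, and the strand setting of the counts is not given in the sources used here, so the division of reads between neighbours is uncertain. Of 18 other positional regulators, all tested, 15 were called higher in MNF_ciHep and 0 higher in MEF_ciHep. Pitx1, a regulator of the hindlimb, had 105 and 264 CPM in MNF_ciHep, 8.72, 9.32 and 3.66 CPM in MEF_ciHep and 1194 and 1434 CPM in MNF_ciEPC, but 0.86 and 0.429 CPM in MNF (log2 difference -4.63 ± 0.49 (SE), edgeR adjusted p = 3.52e-06). In a fit of the 5 ciHep libraries alone 19 Hox genes and 9 positional regulators were called.

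Immediate early genes, which cells switch on within minutes of a stimulus or of handling, were all higher in MNF_ciHep. All 9 were tested and all 9 were called, with a median log2 difference of -2.98. Fosb, a partner of JUN proteins, had 2183 and 1372 CPM in MNF_ciHep and 7.26, 5.87 and 11 CPM in MEF_ciHep (log2 difference -7.83 ± 1.47 (SE), edgeR adjusted p = 0.000501), where MEF had 8.56, 425 and 7.48 CPM and MNF 4.08 and 5.14 CPM. Jun had 1082 and 1078 CPM against 44.1, 37.3 and 58.2 CPM (log2 difference -4.56 ± 0.48 (SE), edgeR adjusted p = 3.52e-06). Egr1, a zinc finger factor, had 1960.3 and 1842 CPM against 47.5, 73.9 and 79.5 CPM (log2 difference -4.83 ± 0.72 (SE), edgeR adjusted p = 7.17e-05). The 2 MNF_ciHep libraries were close to each other for Jun and Egr1, and 1 of the 3 MEF libraries also stood above the others for Fosb.

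Inflammatory genes pointed the same way, with 7 of 12 called higher in MNF_ciHep and 1 higher in MEF_ciHep. Cxcl1 and Cxcl5, which attract neutrophils, had 172 and 204 CPM and 121 and 93.2 CPM in MNF_ciHep, against 0, 3.28 and 1.10 CPM and 0.484, 0.863 and 0 CPM in MEF_ciHep (edgeR adjusted p = 3.15e-05 and edgeR adjusted p = 1.64e-06). Ptgs2, the inducible enzyme of prostaglandin synthesis, had 443 and 479 CPM against 5.33, 20.4 and 11.7 CPM (log2 difference -5.09 ± 0.81 (SE), edgeR adjusted p = 0.000123). Saa1, an acute phase protein of hepatocytes, was the member called higher in MEF_ciHep, at 7.26, 4.32 and 3.66 CPM against 0 and 0 CPM (at least 7.64-fold, log2 difference 7.55 ± 2.32 (SE), edgeR adjusted p = 0.0235). Saa1 was not called in DESeq2 (adjusted p = 0.239) or without either MNF_ciHep replicate (edgeR adjusted p = 0.143 and 0.0673). Of 12 genes of stress responses 3 were called higher in MEF_ciHep and 4 higher in MNF_ciHep. Metallothioneins, which bind zinc and copper, were higher in MEF_ciHep, with Mt1 at 2456, 1753 and 1987 CPM against 384 and 224 CPM (log2 difference 2.75 ± 0.43 (SE), edgeR adjusted p = 0.000105). Nqo1, a target of the antioxidant factor NRF2, was higher in MNF_ciHep, with 76.9 and 46.0 CPM against 11.1, 11.7 and 4.03 CPM (log2 difference -2.76 ± 0.36 (SE), edgeR adjusted p = 2.38e-05, or 0.111 with the MEF_ciEPC libraries as separate samples).

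Interferon response genes were higher in MEF_ciHep. Of 18 genes 17 were tested, 14 were called higher in MEF_ciHep and 0 higher in MNF_ciHep, with a median log2 difference of 2.02. Ifit3, which blocks viral RNA, had 211, 346 and 182 CPM in MEF_ciHep and 30.4 and 10.6 CPM in MNF_ciHep (log2 difference 3.52 ± 0.44 (SE), edgeR adjusted p = 3.91e-05). Oas1a, a sensor of double-stranded RNA, had 101, 138 and 90.5 against 2.53 and 4.72 CPM (log2 difference 5.01 ± 0.52 (SE), edgeR adjusted p = 2.65e-06). Irf7, the factor that amplifies the response, had 151, 248 and 162 against 37.4 and 29.5 CPM (log2 difference 2.47 ± 0.35 (SE), edgeR adjusted p = 4.18e-05). Isg15, the ubiquitin-like protein whose promoter is shown above, had 94.4, 149 and 118 CPM in MEF_ciHep, 62.0 and 27.1 CPM in MNF_ciHep, 4.61, 9.69 and 3.32 CPM in MEF and 32.4 and 40.9 CPM in MNF (log2 difference 1.41 ± 0.47 (SE), edgeR adjusted p = 0.0227). MNF_ciHep replicate 2 was the lower of its pair for Ifit3, Irf7 and Isg15. Without it the count was 7 and the edgeR adjusted p of Isg15 was 0.191. Isg15 was also not called without MEF_ciHep replicate 2 (edgeR adjusted p = 0.07), in limma (adjusted p = 0.052) or with the MEF_ciEPC libraries as separate samples (edgeR adjusted p = 0.0801).

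Targets of Wnt signalling, the pathway that keeps many epithelial progenitors dividing and sets the zones of the liver lobule, were higher in MNF_ciHep in 7 of 10 genes and in MEF_ciHep in 0. Axin2, a feedback inhibitor that reads pathway activity in many tissues, had 101 and 86.1 CPM in MNF_ciHep, 1.94, 1.38 and 1.10 CPM in MEF_ciHep and 127 and 84.0 CPM in MNF_ciEPC (log2 difference -6.02 ± 0.41 (SE), edgeR adjusted p = 8.78e-08). Notum, a secreted inhibitor of Wnt proteins, had 273 and 123 CPM against 0, 0.691 and 0 CPM (log2 difference -8.98 ± 0.61 (SE), edgeR adjusted p = 8.07e-08), and Lef1, a nuclear partner of beta-catenin, had 53.8 and 18.9 CPM against 0, 0.518 and 0 CPM (ratio of summed counts 147, interval 49.5 to 718, log2 difference -6.97 ± 0.87 (SE), edgeR adjusted p = 2e-05). Axin2 was thus in MNF_ciHep at about the level of both ciEPC groups, since MEF_ciEPC had a median of 106 CPM. CTTTGA, the core of a TCF/LEF site, was in 12.3% of all promoter windows and in 1 of the 6 available for this list, Sp5.

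Cell division genes were higher in MNF_ciHep. All 24 were tested, 20 were called higher in MNF_ciHep and 0 higher in MEF_ciHep, with a median log2 difference of -1.65, and in 23 of 24 both MNF_ciHep libraries lay above all MEF_ciHep libraries. Mki67, a protein of dividing cells, had 186 and 250.1 CPM in MNF_ciHep and 35.8, 40.6 and 64.8 CPM in MEF_ciHep (log2 difference -2.22 ± 0.41 (SE), edgeR adjusted p = 0.00044), against 367 CPM at the median of MEF_ciEPC. Top2a, which untangles chromosomes, had 230.1 and 244 CPM against 40.7, 53.9 and 79.8 CPM (log2 difference -2.03 ± 0.33 (SE), edgeR adjusted p = 0.000148), and Mcm2, a helicase subunit that licenses DNA replication, had 81.0 and 98.5 CPM against 22.3, 32.6 and 37.4 CPM (log2 difference -1.54 ± 0.24 (SE), edgeR adjusted p = 0.000123). The starting cells were ordered the other way, since Mki67 had 351, 442 and 359.6 CPM in MEF and 99.1 and 127 CPM in MNF. Pcna, Rrm2, Tyms and Ccne1 were the 4 not called. Among 14 p53 targets and Ink4 genes 1 was called higher in MEF_ciHep and 4 higher in MNF_ciHep, the latter 1 without MEF_ciHep replicate 1 and 2 without MNF_ciHep replicate 1. Cdkn1a, the main cell cycle brake of p53, had 327, 419.9 and 316 CPM in MEF_ciHep and 521 and 357 CPM in MNF_ciHep and was not called (log2 difference -0.32 ± 0.24 (SE), edgeR adjusted p = 0.29).

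**Figure D3:**
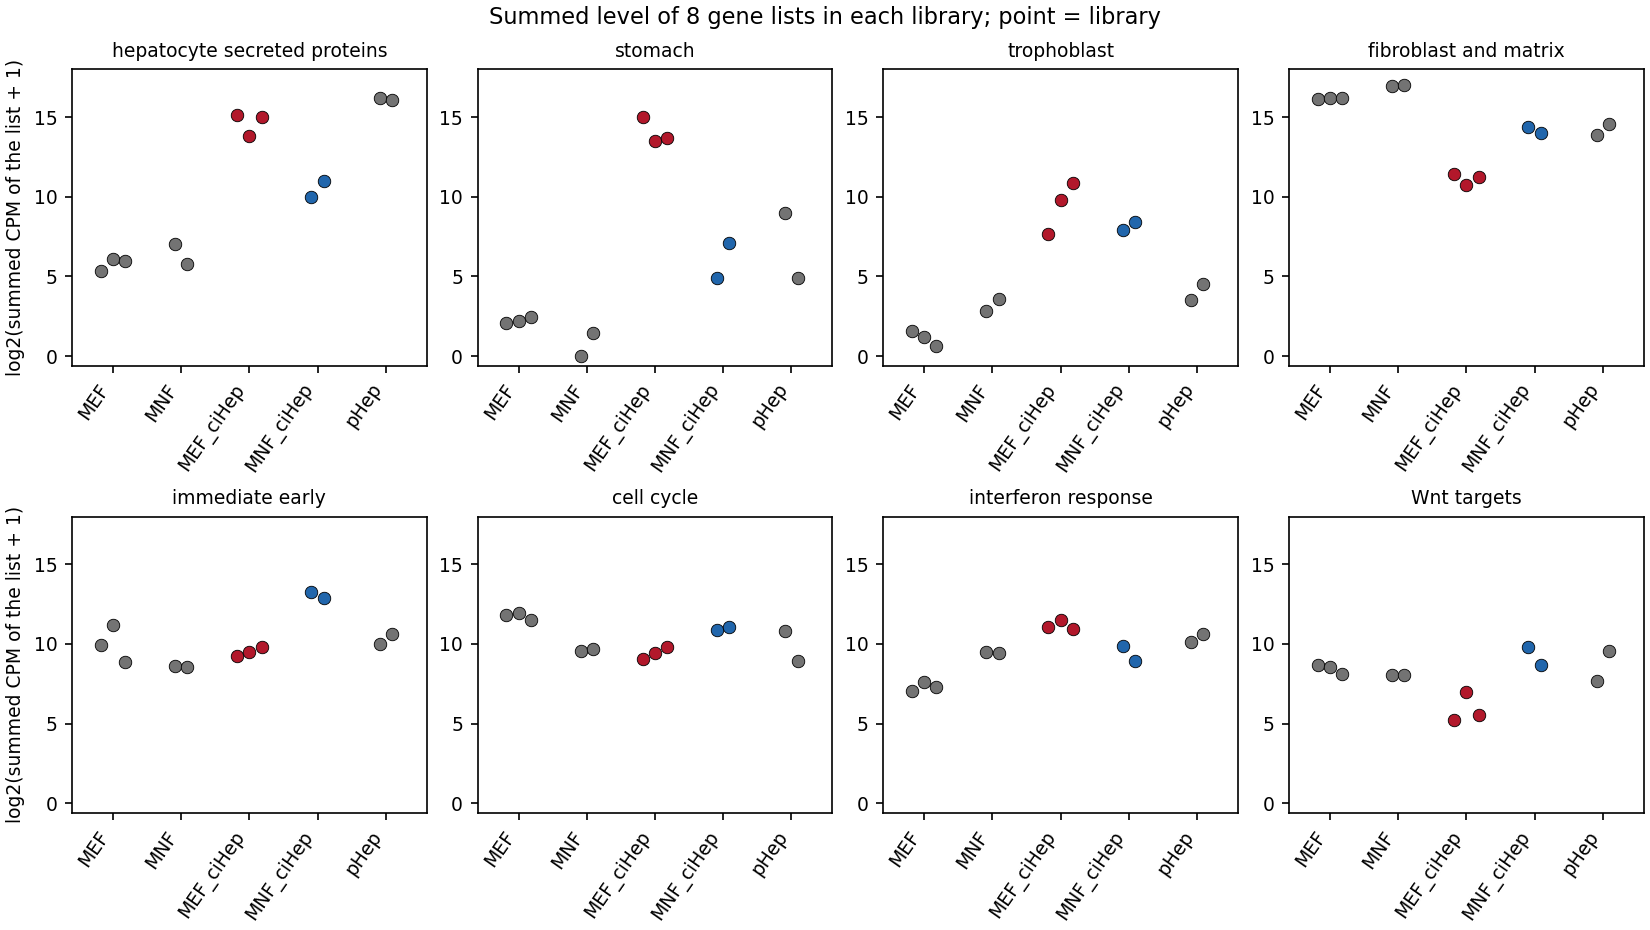
Summed CPM of 8 gene lists in each library, as log2(sum + 1), with a point for each library. MEF_ciHep (red) lies above MNF_ciHep (blue) for secreted hepatocyte proteins, stomach genes and the interferon response, below it for fibroblast, immediate early, cell cycle and Wnt target genes, and overlaps it for trophoblast genes.

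The largest differences were named by a rule: the 12 largest rises and 12 largest falls by fitted log2 difference, taken from called genes whose groups did not overlap and whose higher group reached 32 CPM. In all 2874 genes met these conditions, 1669 higher in MEF_ciHep and 1205 higher in MNF_ciHep. On the side of MEF_ciHep the 12 held liver genes (Alb and Serpina1b), stomach genes, placental genes and digestive enzymes. Ctse (chr1:131638306-131675505 on GRCm38), an intracellular protease of the stomach surface, had 926, 474 and 393 CPM in MEF_ciHep and 0 and 0 CPM in MNF_ciHep (at least 876-fold, log2 difference 14.46 ± 1.47 (SE), edgeR adjusted p = 1.39e-05). Vsig1 (chrX:140907608-140939472), a junction protein of gastric epithelium, had 167, 115 and 80.6 against 0 and 0 CPM (at least 188-fold, log2 difference 12.15 ± 1.08 (SE), edgeR adjusted p = 5.11e-06). Hpgd, which inactivates prostaglandins, had 161, 170.2 and 138 against 0 and 0 CPM (at least 259-fold, log2 difference 12.53 ± 1.21 (SE), edgeR adjusted p = 3.53e-06). The placental genes were Prl3d1, Psg29 and Prl7a1, all highest in MEF_ciHep replicate 3. Psg29, a glycoprotein of pregnancy, had 62.5, 304 and 893 against 0 and 0 CPM (at least 662-fold, log2 difference 13.95 ± 2.17 (SE), edgeR adjusted p = 0.000588), and Prl7a1, of the prolactin family, had 21.3, 165 and 569 against 0 and 0 CPM (at least 391-fold, log2 difference 13.21 ± 2.92 (SE), edgeR adjusted p = 0.0102). In DESeq2 neither of these was called, with an adjusted p of 0.0822 for Psg29 and 0.105 for Prl7a1. The amylase copies Amy2a2, Amy2a3 and Amy2a4 carried identical values, 159, 70.1 and 120.5 against 0 and 0 CPM, and cannot be resolved from each other. Pgk1-rs7, a processed copy of the glycolytic gene Pgk1, had 748, 396 and 908 against 0 and 0 CPM and is uncertain because it shares reads with Pgk1, which had 1253, 781 and 1124 against 470.1 and 467 CPM.

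Among the 12 largest falls 10 had no counts in MEF_ciHep. Dio2 (chr12:90724552-90738438 on GRCm38), which activates thyroid hormone, had 79.1 and 78.5 CPM in MNF_ciHep and none in MEF_ciHep (at least 278-fold, log2 difference -11.55 ± 0.93 (SE), edgeR adjusted p = 8.11e-07), while MEF had 0.988, 3.08 and 1.11 CPM and MNF 0.43 and 0 CPM. Stc1 (chr14:69029238-69041804), a secreted regulator of calcium, had 189 and 146 CPM (at least 613-fold, log2 difference -12.64 ± 1.19 (SE), edgeR adjusted p = 7.99e-06). Crabp1 (chr9:54764748-54773110), which binds retinoic acid in embryonic mesenchyme, had 499 and 278 CPM in MNF_ciHep and 0.484, 0 and 0.366 CPM in MEF_ciHep (ratio of summed counts 2234, interval 618 to 18463, log2 difference -10.80 ± 0.77 (SE), edgeR adjusted p = 1.19e-07), where MEF had 502, 311 and 593 CPM. Csf2rb, a shared receptor chain for cytokines of blood cells, had 85.5 and 82.6 CPM (at least 298-fold, log2 difference -11.64 ± 1.46 (SE), edgeR adjusted p = 6.13e-05), and Mcpt1, a protease of mast cells, had 143 and 196 CPM (at least 571-fold, log2 difference -12.66 ± 1.93 (SE), edgeR adjusted p = 0.000775). Neither gene was above 1 CPM in any MEF or MNF library. Cldn11, a tight junction protein, had 111 and 49.0 CPM and was also under 2 CPM in every fibroblast library. Nsg1, Layn and Tmem26 were present in both fibroblast groups and in MNF_ciHep, with Layn, a membrane receptor for hyaluronan, at 51.6 and 42.5 CPM in MNF_ciHep and 26.0 and 28.7 CPM in MNF. Gm37371, a gene model without a name, had 29.1 and 175 CPM in MNF_ciHep, and its call was lost in 5 of 14 alternative analyses. Twist2 and Postn, the remaining members, are described with the fibroblast genes.

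The origin of the cells could carry over from the fibroblasts, so the difference between the ciHep groups was set against the difference between MEF and MNF. The test was the interaction, (MEF_ciHep minus MNF_ciHep) minus (MEF minus MNF), in the same fit, and the 2 differences share no libraries. It was called in 2393 genes upward (14.9%) and in 2917 genes downward (18.2%). Of the 5449 genes called between the ciHep groups, 3408 were also called for the interaction. The interaction cannot be read for the 1447 tested genes without counts in MEF or in MNF, because their fibroblast difference is not defined. Among them were 641 genes called in ciHep, such as Alb and Serpina1b, and 5156 of the interaction calls lay outside them. Among 14614 genes with counts in both fibroblast groups, the difference in ciHep and that in fibroblasts had the same sign in 6877 (47.1%), and across genes they correlated at -0.019 (Pearson) and -0.056 (Spearman), with standard deviations of 2.12 and 1.2 in log2 units. Of 4808 called genes in this set 2329 (48.4%) had the sign they had in fibroblasts.

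**Figure D4:**
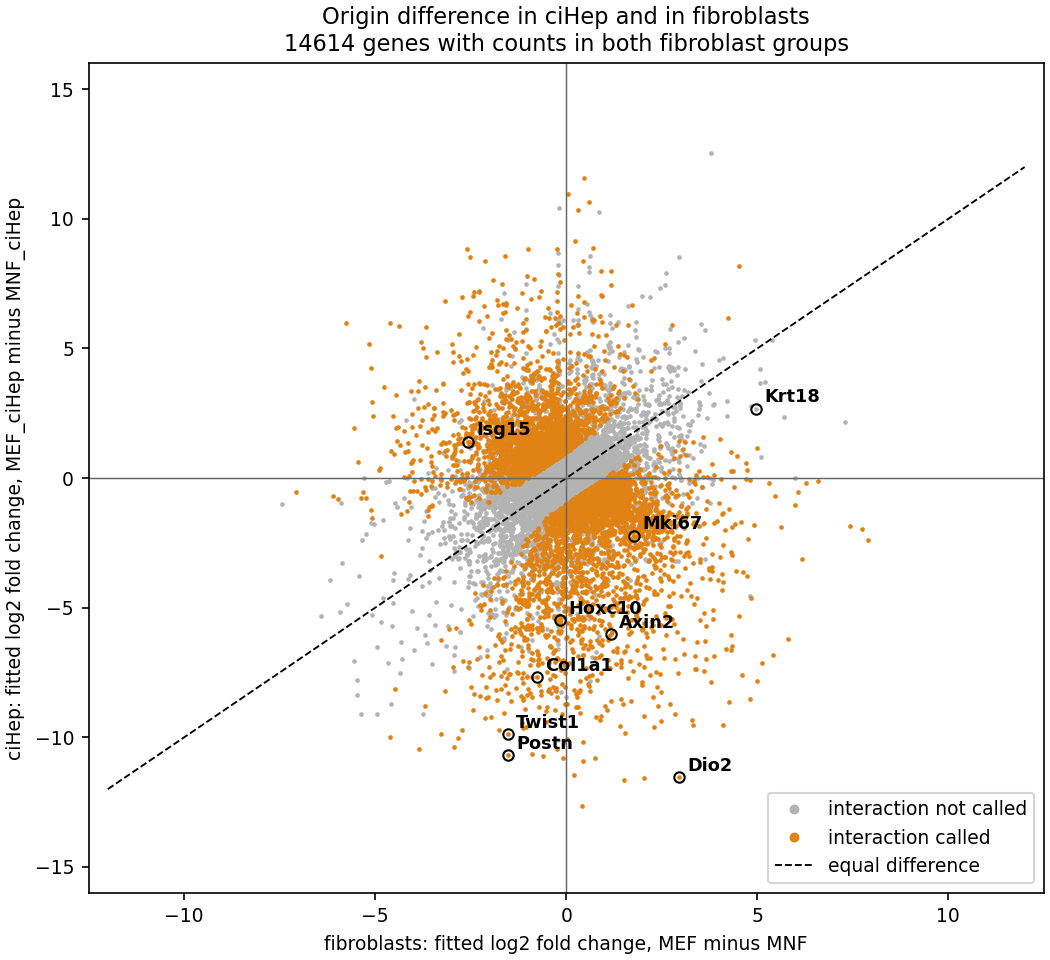
Difference by origin in ciHep (vertical) against that in the starting fibroblasts (horizontal), both as fitted log2 fold change, for 14614 genes with counts in both fibroblast groups. Orange points were called for the interaction, and the dashed line marks equal differences. The cloud is taller than wide (standard deviations of 2.12 and 1.2) and not drawn out along the line, and Mki67 and Isg15 lie in the quadrants where the sign differs.

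By gene group, 30 of 32 fibroblast and matrix genes, 27 of 36 Hox genes, 24 of 24 cell cycle genes and 9 of 9 immediate early genes were called downward for the interaction, and 15 of 17 interferon genes upward. For Col1a1 the gap between MEF_ciHep and MNF_ciHep exceeded that between MEF and MNF (interaction -6.89 ± 1.32 (SE), edgeR adjusted p = 0.000746). Hoxb9 was higher in MEF than in MNF, with 67.5, 57.3 and 63.4 CPM in MEF, and lower in MEF_ciHep than in MNF_ciHep (interaction -7.14 ± 0.60 (SE), edgeR adjusted p = 1.84e-06). Mki67 had the same opposite order (interaction -4.01 ± 0.60 (SE), edgeR adjusted p = 0.000102). Isg15 had the opposite order in the other direction, lower in MEF than in MNF and higher in MEF_ciHep than in MNF_ciHep (interaction 3.99 ± 0.69 (SE), edgeR adjusted p = 0.000348). Dcn, a small proteoglycan of matrix, was 1 of the 2 fibroblast genes not called for the interaction (interaction -3.18 ± 1.5 (SE), edgeR adjusted p = 0.108). It stood at 40.8, 84.4 and 90.9 CPM in MEF against 1599 and 1359 CPM in MNF, then at 0.969, 4.66 and 0.732 CPM in MEF_ciHep against 757 and 237 CPM in MNF_ciHep. Pdgfra, a growth factor receptor of mesenchyme and primitive endoderm, was the other (interaction -1.27 ± 0.60 (SE), edgeR adjusted p = 0.107). Krt18 was higher on the MEF side in fibroblasts and in ciHep alike (interaction -2.28 ± 1.10 (SE), edgeR adjusted p = 0.114). A missed threshold does not show that the 2 differences were equal.

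Over all genes MNF_ciHep replicate 1 correlated with MEF at 0.846 to 0.861 and with MNF at 0.838 to 0.841, replicate 2 with MEF at 0.812 to 0.822 and with MNF at 0.789 to 0.791, and MEF_ciHep with MEF at 0.656 to 0.689. With pHep the correlation was 0.776 to 0.805 for MEF_ciHep and 0.722 to 0.737 for MNF_ciHep. MEF_ciHep correlated with 9 of the 10 MEF_ciEPC libraries at 0.775 to 0.828 and with MNF_ciEPC at 0.786 to 0.806. Both ranges overlap that of MEF_ciHep with pHep. MNF_ciHep replicate 2 correlated with 9 of the 10 MEF_ciEPC libraries, without that of passage 22 in series 2, at 0.823 to 0.882 and replicate 1 at 0.773 to 0.839. With MNF_ciEPC, of the same origin, MNF_ciHep replicate 1 correlated at 0.774 to 0.7815 and replicate 2 at 0.821 to 0.830. For replicate 2 this range overlaps its range with MEF. The 2 MNF_ciHep libraries thus differed from each other. Relative to the other replicate, replicate 1 was closer to fibroblasts and replicate 2 closer to ciEPC. Genes that had a range of 4-fold or more within a group were 125 of 6557 in MEF_ciHep (1.91%) and 75 of 6446 in MNF_ciHep (1.16%). A range over 3 libraries tends to exceed a range over 2, so these shares do not rank the groups by spread.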

How the data were processed

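RNA-seq of 28 libraries (Trizol RNA, Illumina TruSeq libraries) was used. The deposited values are expected counts and TPM per gene, made by the authors with RSEM 1.2.4 on mm10, per the submitters' processing notes. The aligner, annotation and strand setting are not given in the sources used here. Expected counts were rounded, and 31673 genes entered. The 10 MEF_ciEPC libraries were summed per series of passages, which gave 20 samples in 9 groups. Besides the groups named above, these include embryonic stem cells (ESC) and endoderm progenitors derived from them (ESC_EPC). Genes were filtered with filterByExpr (minimum count 10), scaled by TMM and fitted over all groups with edgeR 4.0.16 (quasi-likelihood) in R 4.3.3. Calls need a Benjamini-Hochberg adjusted p under 0.05 over 16061 genes and at least a 2-fold difference. The fit was tested on simulated data with known folds. The simulation gave every gene the same spread and changed only a small share of genes, all above a minimum level. Its results are therefore no error rates of the reported calls. Between the ciHep groups the fit recovered 6 of 62 genes changed 2-fold, 67 of 69 changed 4-fold and 69 of 69 changed 8-fold. For the interaction the fit recovered 0 of 62, 32 of 69 and 60 of 69. False calls numbered 5 and 7. A gene not called can therefore still differ, above all near 2-fold. Named genes are list members and the 12 largest rises and falls among called genes that reached 32 CPM in the higher group without overlap. Members and lists were chosen with earlier results of these data known. Alternatives were RLE scaling, DESeq2 1.42.0, limma 3.58.1 on log2(TPM + 1) of the deposited TPM, other filters and fits, a replicate block and leaving out each replicate. Promoters were taken from RefSeq (GRCm38.p6), and gene positions from GENCODE, where 31426 genes matched by identifier. Replicate pairs differed by more than counting noise. The 5 ciHep libraries held 1664063 to 6133147 counts, which limits the precision of genes with few counts.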

Additional observations from a re-analysis of the deposited data

Results flagged for a closer look

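The effect of origin differed between ciHep and fibroblasts by the interaction test in 2393 genes upward and 2917 genes downward (edgeR, adjusted p under 0.05 and at least 2-fold). Among the 24 genes with the largest differences between the ciHep groups, 11 passed this test, with the difference in ciHep minus that in fibroblasts given here in log2 units. Vsig1, the junction protein of gastric epithelium, passed with 14.5, but it had no counts in MEF, so that its fibroblast difference is not defined and the value cannot be read. The same holds for the other interaction calls without counts in MEF or in MNF, and 5156 calls lay outside them. The value was -13.16 for Csf2rb, -13.6 for Cldn11 and -14.49 for Dio2, which had at most 3.08 CPM in any fibroblast library and were present in MNF_ciHep. It was -13.06 for Stc1, -11.68 for Nsg1, -11.38 for Twist2, -10.72 for Layn, -11.55 for Crabp1, -10.13 for Tmem26 and -9.163 for Postn, which both fibroblast groups expressed and MEF_ciHep lacked or nearly lacked. With no counts in MEF_ciHep for most of these genes the sizes depend on the prior count, and the direction is that of the levels in the report.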

How the results depend on the processing

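In each comparison the number of called genes stayed within 1.5 times that reported under every alternative, except that the interaction upward was 1534 with the MEF_ciEPC libraries as separate samples. Leaving out 1 replicate at a time gave 2000 to 2494 genes higher in MEF_ciHep, 2290 to 2786 higher in MNF_ciHep, 1833 to 2413 for the interaction upward and 2539 to 2973 downward. In no alternative was a gene called with the sign opposite to the reported call. Between the ciHep groups 5449 genes were called. With the MEF_ciEPC libraries as separate samples the number was 4249, and in a fit of the 5 ciHep libraries alone it was 4545. For the 24 largest differences 14 alternatives kept the call in 326 cases and lost it in 10, and reversed it in 0. Lama1, which was not called, changed sign without MNF_ciHep replicate 2, to a log2 difference of 1.31. Replicate numbers were not taken as pairs in the main fit. The deviations of same-numbered libraries correlated at -0.0762 and -0.173. With 2 MNF_ciHep libraries the deviations of the group mirror each other, so these values cannot decide whether the libraries are paired. A fit with the replicate number as a block gave 2439 and 2685 genes between the ciHep groups and 2352 and 2813 for the interaction. Most counts of small lists rest on 2 MNF_ciHep libraries, the shallower of 1664063 counts. With the MEF_ciEPC libraries as separate samples the interferon genes called numbered 8, the extraembryonic endoderm genes 1 and 2, the neural genes 3 and the endothelial genes higher in MEF_ciHep 2, and with a minimum count of 50 the Hox genes called numbered 20 and the epidermal genes higher in MNF_ciHep 3.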

Other observations

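Markers of other tissues were read in the same libraries. Of 7 mesothelium genes 6 were tested and 3 were called higher in MEF_ciHep. Msln, which encodes the surface protein mesothelin, had 1089, 1577 and 1428 CPM in MEF_ciHep, 6.96 and 8.85 CPM in MNF_ciHep and 131 and 87.4 CPM in pHep (log2 difference 7.45 ± 0.91 (SE), edgeR adjusted p = 1.18e-05). Wt1, the regulator that defines mesothelium, had 4.36, 0.863 and 1.10 and 6.65 and 6.49 CPM and was not called. Of 12 bile duct genes 11 were tested, with 4 called higher in MEF_ciHep and 2 higher in MNF_ciHep. Krt7, a keratin of ducts, had 759.8, 653 and 1048 against 33.2 and 47.8 CPM (log2 difference 4.34 ± 0.51 (SE), edgeR adjusted p = 8.62e-06), whereas Sox9, a regulator of duct cells, had 60.8 and 80.8 CPM in MNF_ciHep and 15.0, 6.22 and 6.96 CPM in MEF_ciHep (log2 difference -3.00 ± 0.36 (SE), edgeR adjusted p = 1.5e-05). Spp1, the matrix protein osteopontin, also lay higher in MNF_ciHep, with 1211 and 1593 CPM against 63.0, 401 and 289 CPM (log2 difference -2.48 ± 0.62 (SE), edgeR adjusted p = 0.00412). With the MEF_ciEPC libraries as separate samples the adjusted p of Spp1 was 0.284 in edgeR.

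Of 12 endothelial genes, all tested, 4 were called higher in MEF_ciHep and 1 higher in MNF_ciHep, or 2 without MEF_ciHep replicate 1, MEF_ciHep replicate 3 or MNF_ciHep replicate 1. Vwf, the clotting protein of vessel walls, had 253, 334 and 159 against 7.91 and 14.7 CPM (log2 difference 4.52 ± 0.61 (SE), edgeR adjusted p = 2.97e-05), while Emcn had no counts in all 5 libraries and Cldn5 at most 0.317 CPM. Of 13 macrophage genes 10 were tested. Csf1r, a growth factor receptor of macrophages and trophoblast, was called higher in MEF_ciHep, with 133, 60.4 and 182 against 1.90 and 1.77 CPM (log2 difference 6.04 ± 0.89 (SE), edgeR adjusted p = 7.86e-05), and 3 genes were called higher in MNF_ciHep, a count that fell to 1 without MNF_ciHep replicate 2 and with the replicate number as a block. Adgre1, C1qa, C1qb and C1qc, which define macrophages, had no counts in all 5 libraries. Of 19 epidermal genes 16 were tested, with 2 called higher in MEF_ciHep and 6 higher in MNF_ciHep. The 19 genes summed to 369 to 533 CPM in MEF_ciHep, 335 and 378 CPM in MNF_ciHep and 7287 and 3844 CPM in pHep. Krt13, a keratin of stratified epithelium, had 38.9 and 44.2 CPM in MNF_ciHep and 0.484, 0.345 and 0 CPM in MEF_ciHep (ratio of summed counts 144, interval 48.5 to 704, log2 difference -7.09 ± 1.0 (SE), edgeR adjusted p = 7.34e-05). Of 12 pluripotency genes, all tested, 1 was called higher in MEF_ciHep and 2 higher in MNF_ciHep. The 1 was lost without MEF_ciHep replicate 3 or without either MNF_ciHep replicate, and the 2 became 4 without MNF_ciHep replicate 1 and in DESeq2. Tdgf1, a coreceptor of Nodal signals, had 45.3 and 152 CPM in MNF_ciHep and 0, 0 and 0.366 CPM in MEF_ciHep (ratio of summed counts 872, interval 156 to 34544, log2 difference -9.65 ± 2.04 (SE), edgeR adjusted p = 0.00234), and Nanog was under 1 CPM in all 5 libraries.

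Of 15 pancreas and lung genes 5 were tested, with 3 called higher in MEF_ciHep and 1 higher in MNF_ciHep. Sftpd, a lung collectin also made in stomach, had 31.5, 123 and 52.4 against 0.317 and 0.59 CPM (ratio of summed counts 212, interval 58.4 to 1749.8, log2 difference 7.31 ± 1.02 (SE), edgeR adjusted p = 0.000141), and Ins1, Ins2, Sftpb and Sftpc had no counts in the 5 libraries. Of 10 muscle genes 9 were tested, with 2 called each way, and of 9 neural genes 8 were tested, with 5 called higher in MNF_ciHep. Without MNF_ciHep replicate 1 the neural count was 2 and 0 muscle genes were called higher in MEF_ciHep, and the muscle genes higher in MNF_ciHep numbered 1 without MNF_ciHep replicate 2 or without any 1 of the MEF_ciHep replicates. Of 11 fat and cartilage genes 6 were tested, and Pparg, the regulator of fat cells, had 105, 93.1 and 75.4 against 19.3 and 13.6 CPM (log2 difference 2.44 ± 0.39 (SE), edgeR adjusted p = 0.000155). Of 8 genes of glycolysis 2 were called higher in MEF_ciHep, among them the glucose transporter Slc2a1, with 754, 702 and 1668 against 181 and 380.5 CPM (log2 difference 1.88 ± 0.45 (SE), edgeR adjusted p = 0.0029). The glycolysis count was 0 without MNF_ciHep replicate 1, where the edgeR adjusted p of Slc2a1 was 0.0557, and 1 without MNF_ciHep replicate 2.

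Of 17 imprinted genes, which are expressed from 1 parental copy, 6 were called higher in MNF_ciHep and 0 higher in MEF_ciHep, or 3 without MEF_ciHep replicate 2. Rian, Meg3 and Mirg, noncoding RNAs of 1 cluster, were among them, with Rian at 241 and 534 CPM in MNF_ciHep and 93.0, 25.2 and 42.8 CPM in MEF_ciHep (log2 difference -2.90 ± 0.47 (SE), edgeR adjusted p = 0.000156). Mest had 217 and 27.7 CPM against 0.484, 3.11 and 1.46 CPM (log2 difference -5.90 ± 0.98 (SE), edgeR adjusted p = 0.000171), and Peg10 had 3003, 1118 and 2273 CPM in MEF_ciHep and 852 and 1968 CPM in MNF_ciHep and was not called. Xist, which silences the X chromosome in females, had 1855, 1444 and 1173 CPM in MEF_ciHep and 159.5 and 145 CPM in MNF_ciHep (log2 difference 3.28 ± 1.2 (SE), edgeR adjusted p = 0.0345). The call of Xist was lost without any 1 of 4 of the 5 ciHep libraries, MEF_ciHep replicates 1 and 2 and both MNF_ciHep replicates, with edgeR adjusted p from 0.0511 to 0.142. It was also lost in limma (adjusted p = 0.118), with the replicate number as a block (edgeR adjusted p = 0.0545) and with the MEF_ciEPC libraries as separate samples (edgeR adjusted p = 0.115). The Y-linked gene Eif2s3y had 16.9, 31.8 and 20.9 and 38.0 and 52.5 CPM, so that transcripts of both sexes were present in all 5 libraries.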
